A study of Homo sapiens with 12 samples.

Results

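The mitochondrially encoded genes are the 37 rows of the expression table whose gene name starts with MT-, among 58302 genes in all. They comprise 13 mRNAs, 2 rRNAs and 22 tRNAs, which is the full gene content of the human mitochondrial genome. Gene expression was measured by RNA sequencing in 12 libraries of human pancreatic cancer cells. BxPC-3 and CFPAC-1 are established epithelial lines of pancreatic adenocarcinoma. Of each, a line resistant to gemcitabine (GEM) was used, named BxPC-3-GR or CFPAC-1-GR and derived from its own parental line by stepwise exposure to GEM, which is a nucleoside analog used as chemotherapy. Each of the 4 lines had 3 replicate libraries. In the labels, BxPC-3-GR has a mesenchymal morphology and the other lines an epithelial morphology. Resistance was derived once in each parental line, so the replicates are libraries of the same derived line. Nothing in the labels says that replicates came from separate cultures, and p-values measure only the spread between these libraries, which may be technical. The question addressed here was how the RNA of the mitochondrial genome differed between GEM-resistant and parental cells.

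Mitochondria keep a small circular genome with no introns. Its mRNAs encode subunits of the respiratory chain and of ATP synthase, its rRNAs form the mitochondrial ribosome, and its tRNAs read the codons of those mRNAs. Both strands are transcribed as long precursors, which are cut at the tRNAs into single RNAs. The mRNAs other than MT-ND6 are then polyadenylated. Transcription of the heavy strand gives both rRNAs, 12 of the mRNAs and 14 of the tRNAs, annotated on the plus strand. The light strand gives MT-ND6 and 8 tRNAs, annotated on the minus strand. All other proteins for replicating, transcribing and translating this genome, and most respiratory chain subunits, come from the nucleus.

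A few sequences show what the counting of reads in this compact genome has to separate. Genes of the mitochondrial genome abut, and some overlap, so that a read can belong to either neighbour. MT-ATP8 and MT-ATP6, which encode ATP synthase subunits, share 46 bases at chrMT:8527-8572 of the plus strand. In the shared stretch, the start codon of MT-ATP6 is in capitals.
MT-ATP8/MT-ATP6: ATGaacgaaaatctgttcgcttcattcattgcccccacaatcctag
MT-ND4L and MT-ND4, which encode complex I subunits, share 7 bases, in capitals within the first 30 bases of MT-ND4 at chrMT:10760-10789 of the plus strand.
MT-ND4L/MT-ND4: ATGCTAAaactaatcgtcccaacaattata
The tRNAs for cysteine and tyrosine, MT-TC at chrMT:5761-5826 and MT-TY at chrMT:5826-5891, lie end to end on the minus strand and share 1 base. They are shown because MT-TC gave the largest decrease, with few fragments. The leucine tRNA MT-TL1, at chrMT:3230-3304 of the plus strand, is shown as the tRNA with the most fragments. Capitals mark the anticodon.
MT-TC: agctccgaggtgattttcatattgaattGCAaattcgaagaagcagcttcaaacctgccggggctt
MT-TY: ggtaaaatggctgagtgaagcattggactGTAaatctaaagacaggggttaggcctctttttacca
MT-TL1: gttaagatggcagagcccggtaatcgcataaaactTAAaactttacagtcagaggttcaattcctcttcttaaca
The complex I mRNAs MT-ND6 and MT-ND3 are shown by their first 60 bases, with the start codon in capitals, because they moved apart from the other mRNAs. The MT-ND6 stretch lies on the minus strand at chrMT:14614-14673 and the MT-ND3 stretch on the plus strand at chrMT:10059-10118.
MT-ND6: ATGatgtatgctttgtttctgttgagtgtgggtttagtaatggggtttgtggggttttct
MT-ND3: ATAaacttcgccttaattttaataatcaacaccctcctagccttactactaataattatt
All are written 5′ to 3′ on the gene's own strand and come from the GENCODE release 29 transcripts of GRCh38. Whether reads were assigned by strand is not given in the sources used here. Reads of MT-ND6 and of light-strand tRNAs therefore cannot be told apart from precursor RNA of the heavy strand across the same bases.

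The deposited values were FPKM, a gene's fragments scaled to its length in kilobases and to the total mapped in that library. Those of the tRNAs fell on whole steps of a single fragment, which returned the mapped fragments of each library, from 12613139 to 25175421. All 5 ductal epithelial markers (EPCAM, KRT7, KRT8, KRT18 and KRT19) were above 0 in every line. Their summed FPKM ran from 786 to 870 in BxPC-3 and, with no overlap, from 902 to 957 in BxPC-3-GR. By limma 3 of the 5 were higher in BxPC-3-GR and 2 did not pass, where 26.2% of all genes tested were higher. In the CFPAC-1 pair 4 of the 5 were lower in the resistant line and EPCAM was higher. Of all genes tested in that pair, 34.9% were lower and 44.6% higher. The sum of the 5 went from 2618 to 2892 in parental libraries down to 1122 to 1308 in resistant ones. The 4 markers of other cells (PTPRC, COL1A1, DES and PECAM1) summed to 2.43 to 3.57 FPKM in CFPAC-1 and, with no overlap, to 3.77 to 4.40 in the resistant line, with PTPRC at 0 and COL1A1 higher (log2FC 0.69, limma adjusted p = 0.000422). In the other pair they summed to 0.743 to 0.829 FPKM in BxPC-3 and 1.246 to 1.496 in BxPC-3-GR, with PTPRC and DES at 0. The part of these markers in the results below was not tested. CFPAC-1 replicate 1 stood apart from the other CFPAC-1 libraries in its mitochondrial RNA, and the main values that rest on it are also given without it. Levels of bulk RNA do not tell apart fewer mitochondrial genomes, fewer mitochondria and less RNA from each.

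Mitochondrially encoded RNA took a larger part of the CFPAC-1-GR libraries than of the CFPAC-1 libraries, while the parts in BxPC-3 and BxPC-3-GR overlapped. Of the mapped fragments, CFPAC-1 libraries had 1.57%, 2.98% and 3.23% in the 37 genes, with the lowest share in replicate 1. CFPAC-1-GR libraries had 6.87%, 7.61% and 7.44%. Every CFPAC-1-GR library was above every CFPAC-1 library. BxPC-3 libraries had 10.7%, 10.4% and 11.4%, and BxPC-3-GR libraries 11.7%, 10.8% and 11.0%, so these groups overlapped. The mRNAs made up most of it, with 6.51% ± 0.363 (SD, n = 3) of mapped fragments in CFPAC-1-GR and 2.32% ± 0.824 (SD, n = 3) in CFPAC-1. The tRNAs were a minor part, with 355 to 2134 fragments in a library.

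**Figure D1:**
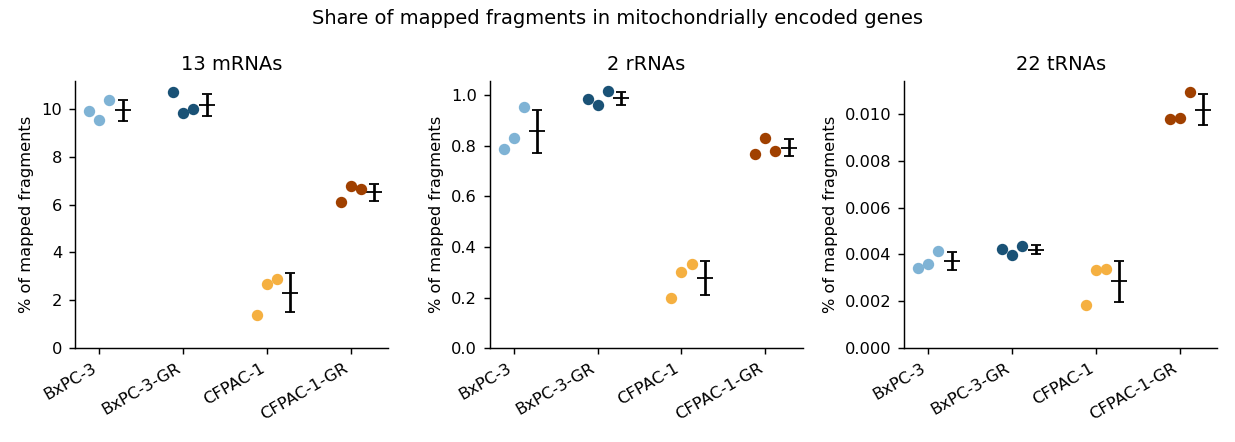
Share of mapped fragments (%, linear axes from 0) in the 13 mRNAs, the 2 rRNAs and the 22 tRNAs. Points are libraries, with 3 per line, and black marks are the mean ± SD. The CFPAC-1 libraries sit lowest in all panels, between 1.37% and 2.90% for the mRNAs, and the CFPAC-1-GR libraries lie above them, between 6.09% and 6.77%.

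Summed over the 13 mRNAs, FPKM was 16632, 30486 and 32936 in CFPAC-1 and 65405, 72067 and 71200 in CFPAC-1-GR. The groups did not overlap, and the mean was 2.61-fold higher in CFPAC-1-GR. The rRNA sum was 2.86-fold higher, at 5798 ± 298 against 2026 ± 507 FPKM (mean ± SD, n = 3). The tRNA sum was 3.54-fold higher, at 1431 ± 94.7 against 404 ± 125 FPKM. Without CFPAC-1 replicate 1 the log2 differences were 1.13 for the mRNA sum, 1.33 for the rRNA sum and 1.59 for the tRNA sum. With all libraries, each of these 3 differences had an exact permutation p of 0.10 (two-sided, 3 against 3), which is the smallest this design allows, and 0.225 after Benjamini-Hochberg adjustment over 18 tests. In BxPC-3 and BxPC-3-GR the mRNA sums overlapped, at 109600 ± 6208 and 109028 ± 5686 FPKM (mean ± SD, n = 3; exact permutation p = 0.90, adjusted 0.953).

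In CFPAC-1-GR, mRNAs of all 4 complexes that the mitochondrial genome serves rose, and 12 of the 13 mRNAs and both rRNAs passed the test as higher. MT-ND6 rose most, 11.3-fold by the ratio of means, MT-CO2 rose least, 1.69-fold, and MT-ND3 fell. All 37 genes had a mean of at least 1 FPKM over the 6 libraries and were tested, by limma on log2(FPKM + 1) with adjustment over 12051 genes. Of the 37, 34 passed as higher, 2 as lower and 1 did not pass, while 44.6% of all genes tested passed as higher and 34.9% as lower. With a further absolute log2FC above 1, the rule for a significantly differentially expressed (SDE) gene, 30 were SDE as higher against 20.5% of all genes, and 1 as lower against 11.7%. These counts include MT-TC, the gene SDE as lower, and MT-TL2, SDE as higher. Each had a group mean under 1 FPKM and was tested only because its level in the other group was higher. The median log2FC of the 13 mRNAs was 1.86, and that of all genes tested was 0.13. Without CFPAC-1 replicate 1 the counts were 34 higher, 2 lower and 27 SDE as higher, with a median of 1.47 for the mRNAs. By the FPKM of single libraries, the groups did not overlap for 34 genes as higher, where 45.7% of all genes tested did not, and for 2 as lower, where 36.4% did not.

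Complex I is the entry point of electrons from NADH, and 7 of its subunits are encoded here. MT-ND6, its only light-strand subunit, had 25.8, 72.3 and 69.7 FPKM in CFPAC-1 and 673, 575 and 654 FPKM in CFPAC-1-GR. These came from 263 to 479 fragments in parental libraries and 5170 to 7711 in resistant libraries, with no overlap. The log2FC was 3.61 ± 0.38 (SE, n = 3, adjusted p = 0.000102), and 3.14 without CFPAC-1 replicate 1. MT-ND5, which lies beside it on the other strand, had 345, 847 and 927 FPKM in CFPAC-1 and 3172, 3008 and 3272 FPKM in CFPAC-1-GR. Its log2FC of 2.28 ± 0.36 (SE, adjusted p = 0.000843) was the largest of the heavy-strand mRNAs, and was 1.83 without CFPAC-1 replicate 1. MT-ND4 (1.90), MT-ND2 (1.87), MT-ND4L (1.86) and MT-ND1 (1.37) also rose on the log2 scale, each with no overlap of the groups.

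MT-ND3 was the only mRNA that fell. Its levels were 2102, 2281 and 2386 FPKM in CFPAC-1 and 1680, 1949 and 1829 FPKM in CFPAC-1-GR, so every resistant library lay below every parental library. The log2FC was -0.31 ± 0.09 (SE, n = 3, limma adjusted p = 0.0126). Unlike the other mRNAs, MT-ND3 was not low in CFPAC-1 replicate 1 to the same degree. The size of the decrease depended on the scaling of the libraries. With FPKM rescaled to the summed FPKM of genes outside the mitochondrial genome, the log2FC of MT-ND3 was -0.01 (adjusted p = 0.920) and no longer passed. In the 16 other alternatives it was below 0 and passed, with log2FC from -1.41 to -0.25. That rescaling also moved the median log2FC of all genes from 0.13 to 0.37.

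Complex IV, or cytochrome c oxidase, passes electrons to oxygen, and its 3 catalytic core subunits are encoded here. MT-CO1 had 2002, 4340 and 4754 FPKM in CFPAC-1 and 11558, 13192 and 12726 FPKM in CFPAC-1-GR (log2FC 1.85 ± 0.31, adjusted p = 0.00127). MT-CO3 rose by less, with a log2FC of 0.94 ± 0.22 (SE, adjusted p = 0.00564), from 5002 ± 1412 to 9341 ± 802 FPKM (mean ± SD). MT-CO2 had 2730, 4596 and 4944 FPKM in CFPAC-1 and 6348, 7293 and 7118 FPKM in CFPAC-1-GR, and a log2FC of 0.80 ± 0.22 (SE, adjusted p = 0.0128). With upper-quartile scaling the log2FC was 0.37 for MT-CO2 (adjusted p = 0.159) and 0.51 for MT-CO3 (adjusted p = 0.0633), and neither passed. MT-CYB, the cytochrome b subunit of complex III, rose with a log2FC of 1.63 ± 0.33 (adjusted p = 0.00302). The ATP synthase genes MT-ATP8 and MT-ATP6 rose with log2FC of 1.99 ± 0.29 and 1.93 ± 0.28.

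**Figure D2:**
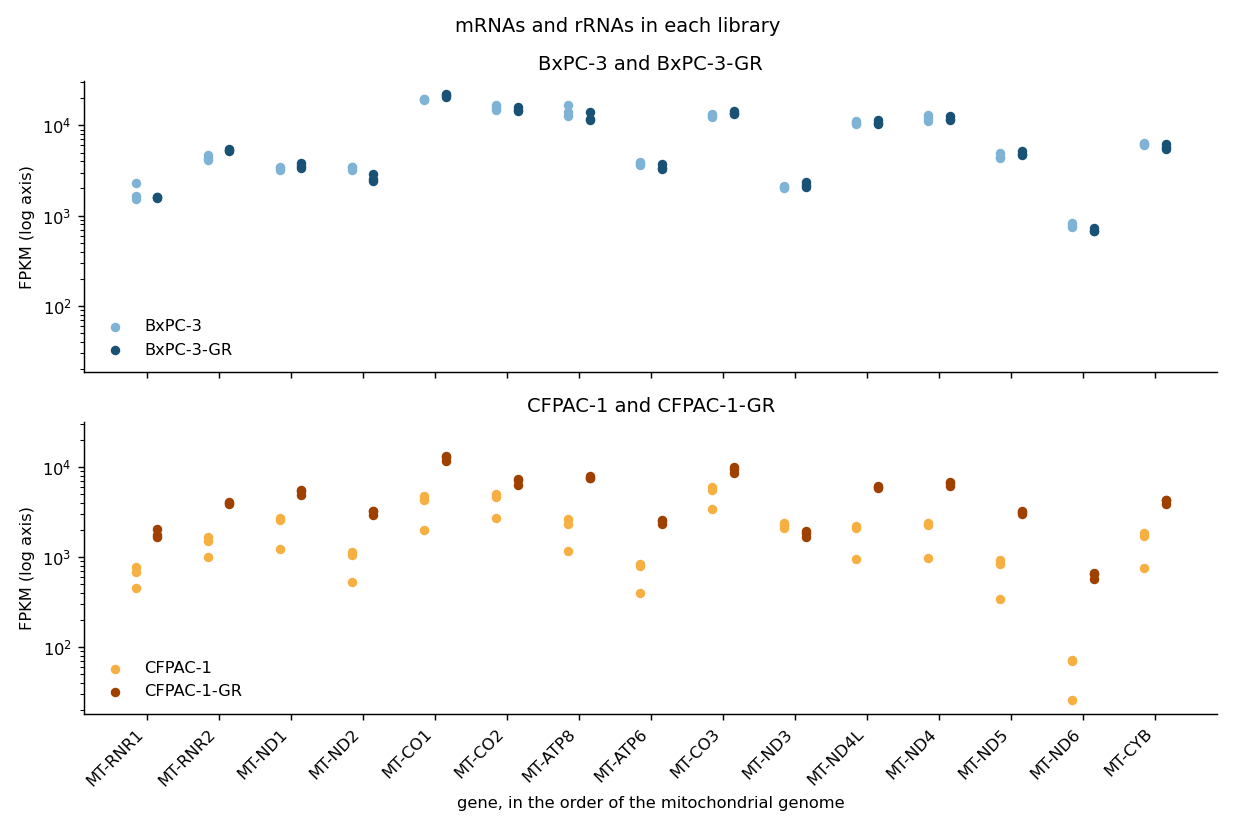
FPKM (log axis) of the 13 mRNAs and 2 rRNAs in genome order, with each point a library, BxPC-3 lines above and CFPAC-1 lines below. In the lower panel the CFPAC-1-GR points lie above the CFPAC-1 points for every gene other than MT-ND3, with the widest gap at MT-ND6, and CFPAC-1 replicate 1 is the lowest CFPAC-1 point.

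Both rRNAs rose in CFPAC-1-GR. MT-RNR1, the small-subunit rRNA, had 455, 682 and 769 FPKM in CFPAC-1 and 1661, 2062 and 1757 FPKM in CFPAC-1-GR (log2FC 1.55 ± 0.20, SE, limma adjusted p = 0.000303). MT-RNR2, the large-subunit rRNA, had 1002, 1510 and 1660 FPKM in CFPAC-1 and 3910, 4074 and 3932 FPKM in CFPAC-1-GR (log2FC 1.55 ± 0.18, adjusted p = 0.000193). For each rRNA the groups did not overlap, and without CFPAC-1 replicate 1 the log2FC of each was 1.33.

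Of the 22 tRNAs, 20 rose in CFPAC-1-GR, MT-TC fell and MT-TN did not pass (log2FC -0.12, adjusted p = 0.299). Their median log2FC was 1.56. All 14 heavy-strand tRNAs rose, with log2FC from 0.94 for MT-TG to 2.24 for MT-TV. The call for MT-TW was lost without any 1 of the CFPAC-1-GR libraries (adjusted p from 0.0636 to 0.0964), and that for MT-TG without CFPAC-1-GR replicate 1 (adjusted p = 0.0527). With the correction for GC content and length described below, 9 of the 14 no longer passed as higher, and MT-TV, MT-TL1, MT-TK, MT-TS2 and MT-TL2 still did. The most abundant, MT-TL1, had 81.0, 159 and 163 FPKM in CFPAC-1 and 547, 562 and 622 FPKM in CFPAC-1-GR (log2FC 2.16 ± 0.26, SE, adjusted p = 0.000228). Of the 8 light-strand tRNAs, 6 rose, and the largest increases of all tRNAs were among them. MT-TE, the glutamate tRNA next to MT-ND6 on the same strand, had 2.98, 11.5 and 9.04 FPKM in CFPAC-1 and 67.8, 71.1 and 59.7 FPKM in CFPAC-1-GR, with a log2FC of 3.08 ± 0.40 (adjusted p = 0.000314), and of 2.58 without CFPAC-1 replicate 1. MT-TQ (2.77) and MT-TP (2.43) followed. MT-TP rested on 2 or 3 fragments in each CFPAC-1 library, and its fragments per mapped fragment were 7.29-fold higher in CFPAC-1-GR with a 95% exact interval of 3.34 to 18.9, for counting error only. MT-TL2 had 3 fragments over all CFPAC-1 libraries and 25 in CFPAC-1-GR, a ratio of 6.86 with an interval of 2.09 to 35.5, again for counting error only. Its parental mean of 0.980 FPKM was under 1, so it was tested only because its level was higher in CFPAC-1-GR. Mature tRNAs are short and modified, so these fragments are a part of the tRNA that such libraries capture, and may include uncut precursor RNA, which was not tested.

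MT-TC fell in CFPAC-1-GR on few fragments. Its mean of 0.852 FPKM in CFPAC-1-GR was under 1, so it was tested only because its level was higher in CFPAC-1. It had 11, 7 and 10 fragments in CFPAC-1 and 1 fragment in each CFPAC-1-GR library, with 95% Poisson intervals of 5.49 to 19.7, 2.81 to 14.4, 4.80 to 18.4 and, for 1 fragment, 0.0253 to 5.57. Its fragments per mapped fragment, pooled over libraries, were 0.0882-fold those of CFPAC-1, with an exact interval of 0.0172 to 0.286. That interval is for counting error only and leaves out the spread between libraries. A count of 1 fragment also occurred in 1 BxPC-3 and 1 BxPC-3-GR library, beside 9 to 16 fragments in the others. In 3 of the 12 libraries MT-TC and its neighbour MT-TY had the same number of fragments. Given the base they share, how fragments were divided between them is uncertain, and its part in the decrease was not tested.

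**Figure D3:**
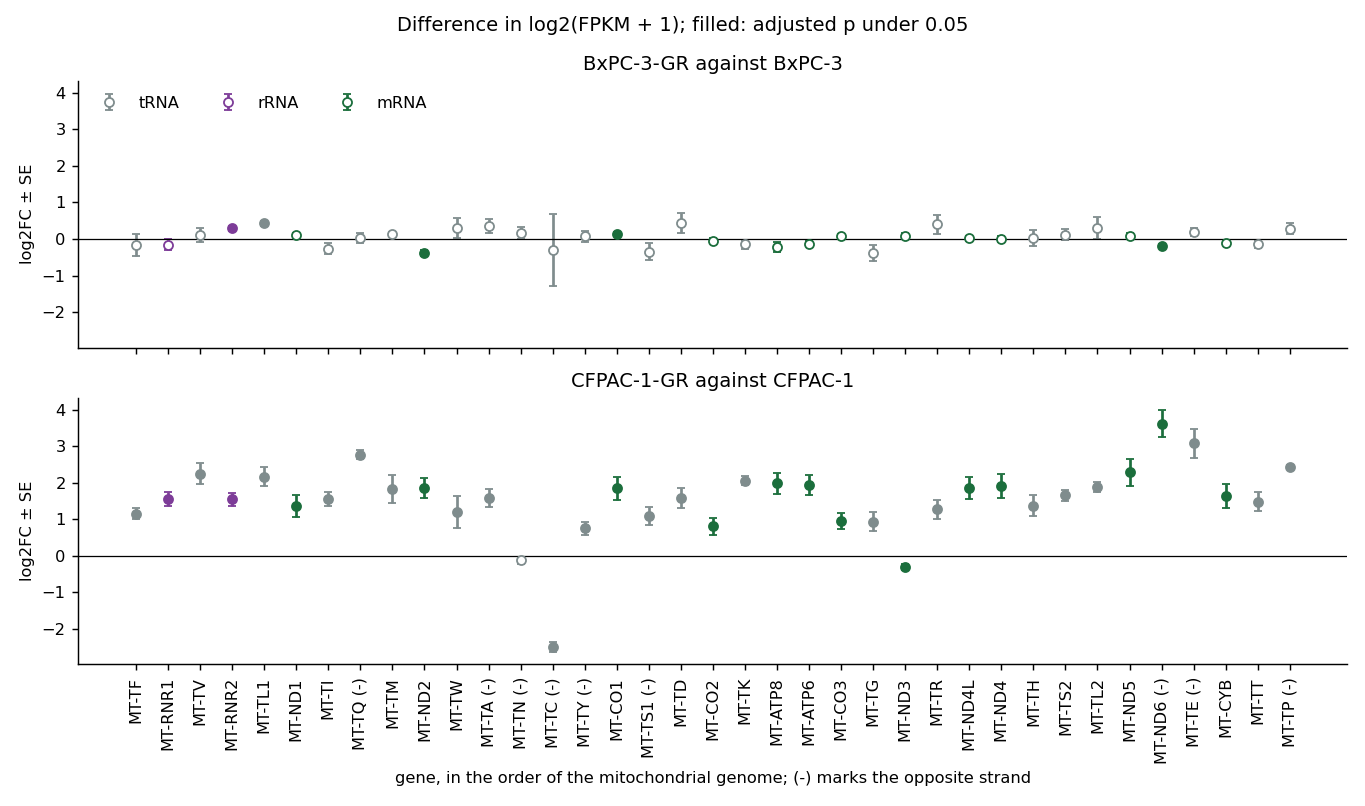
log2FC ± SE of log2(FPKM + 1) for the 37 genes in genome order, BxPC-3-GR against BxPC-3 above and CFPAC-1-GR against CFPAC-1 below, on the same linear axis. Filled points passed at an adjusted p under 0.05, which were 5 genes in the upper panel and 36 in the lower. In the lower panel MT-ND6 reached 3.61. MT-ND3 and MT-TC lay below 0 there, as did MT-TN, which did not pass.

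The CFPAC-1 comparison carried a trend across the nuclear genome that bears on these sizes. Over 11993 genes with a known GC content, log2FC fell with GC content, with a Spearman rho of -0.777, against 0.0396 over 11648 genes in the BxPC-3 comparison. Genes are not independent replicates, and all points share the same 6 libraries. The mitochondrial mRNAs had a GC content from 39.6% for MT-ATP8 to 47.7% for MT-ND1, under the median of 49.2% for nuclear genes tested. Log ratios were then corrected for GC content and length by a spline fitted on nuclear genes. The median log2FC of the mRNAs was 1.33 after it, beside -0.016 for all genes tested. Of the 37 genes, 22 were higher, 13 of them SDE. The shares of all genes given above are without this correction, so these counts have no share beside them. MT-ND6 then had a log2FC of 2.97 (adjusted p = 0.000916) and MT-ND3 of -1.24 (adjusted p = 0.000146). MT-CO2 no longer passed (0.59, adjusted p = 0.0646), and MT-TN passed as lower (-1.41, adjusted p = 0.000105). The tRNAs MT-TF, MT-TW, MT-TY, MT-TG, MT-TH and MT-TT had values below 0 after it, and MT-TI, MT-TM, MT-TA, MT-TD and MT-TR had values above 0 that no longer passed. At their length the correction rests on few genes, since 134 nuclear genes tested were shorter than 100 bases. MT-ATP8, MT-ND4L and MT-ND3 are also short, at under 400 bases. Of the 11993 nuclear genes, 462 were under 400 bases, and the median was 4263.

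In BxPC-3-GR most mitochondrially encoded genes did not pass the test against BxPC-3. Of the 37, 3 passed as higher and 2 as lower, while 26.2% of all 11710 genes tested passed as higher and 31.5% as lower. None was SDE by limma, against 4.14% of all genes as higher and 3.62% as lower, since no absolute log2FC was above 0.43. At an unadjusted p under 0.05, 4 genes were higher and 2 lower. The groups did not overlap for 5 genes as higher and 2 as lower, against 30.1% and 36.0% of all genes. The median log2FC of the 13 mRNAs was -0.0021, beside -0.05 for all genes tested.

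The genes higher in BxPC-3-GR were MT-TL1, MT-RNR2 and MT-CO1. MT-TL1 had 153, 160 and 172 FPKM in BxPC-3 and 224, 212 and 214 FPKM in BxPC-3-GR, with no overlap (log2FC 0.43 ± 0.06, SE, n = 3, adjusted p = 0.00156). MT-RNR2, its upstream neighbour, had 4122, 4326 and 4718 FPKM in BxPC-3 and 5340, 5229 and 5526 FPKM in BxPC-3-GR (log2FC 0.29 ± 0.07, adjusted p = 0.0096). MT-RNR1 did not pass (log2FC -0.16, adjusted p = 0.381), with BxPC-3 replicate 3 the highest at 2290 FPKM. MT-CO1 had 19497, 19140 and 19651 FPKM in BxPC-3 and 22149, 20629 and 21882 FPKM in BxPC-3-GR (log2FC 0.15 ± 0.05, adjusted p = 0.0444). The genes that fell were MT-ND2 (log2FC -0.38 ± 0.08, adjusted p = 0.00784) and MT-ND6 (log2FC -0.20 ± 0.06, adjusted p = 0.0288). MT-ND2 had 3501, 3177 and 3463 FPKM in BxPC-3 and 2860, 2539 and 2414 FPKM in BxPC-3-GR. MT-ND6 had 754, 827 and 796 FPKM in BxPC-3 and 721, 669 and 683 FPKM in BxPC-3-GR, which is the opposite direction to CFPAC-1-GR.

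The calls for MT-CO1 and MT-ND6 in BxPC-3-GR were not firm. The call for MT-CO1 was lost without any of the libraries other than BxPC-3-GR replicate 2 (adjusted p from 0.0691 to 0.132). The call for MT-ND6 was lost without BxPC-3 replicate 2 or 3 or BxPC-3-GR replicate 2 or 3 (adjusted p from 0.0644 to 0.0914). Over the fits without 1 library, the genes lower numbered from 1 to 3, with 1 without BxPC-3 replicate 2 or 3 or BxPC-3-GR replicate 2. In a fit of all 12 libraries with a shared estimate of the spread, none of the 5 genes passed (adjusted p from 0.110 to 0.634), and 1 gene was higher and 0 lower at an unadjusted p under 0.05.

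The difference between the lines was itself tested, as the log2FC of the CFPAC-1 pair minus that of the BxPC-3 pair in a limma fit of all 12 libraries. It uses the libraries of both comparisons above and is no further evidence for them. Per the authors' methods, the final GEM concentration was higher for BxPC-3 than for CFPAC-1, which cannot be told apart from line here. Of the 37 genes, 32 passed with a higher log2FC in the CFPAC-1 pair, where 44.9% of 12210 genes did, and 29 exceeded 1, where 23.6% did. MT-ND3 passed as lower, where 31.6% of all genes did, with a difference of -0.40. MT-TC, MT-TN, MT-TR and MT-TW did not pass. With GC content and length corrected, 16 genes passed as higher, 12 of them above 1, and 4 as lower. The shares of all genes given here are without that correction. The largest difference was that of MT-ND6, at 3.81, and the median over the mRNAs was 1.84, beside 0.22 for all genes.

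The parental lines themselves differed in their mitochondrial RNA, and these libraries also enter the comparisons above. Per the authors' methods, BxPC-3 and CFPAC-1 were grown in different media, which cannot be told apart from line here. In CFPAC-1 against BxPC-3, 21 of the 37 genes were lower, 1 was higher and 15 did not pass, where 44.8% of 11842 genes were lower and 39.4% higher. The lower genes were 11 mRNAs, both rRNAs and 8 tRNAs, and 19 were SDE, against 24.7% of all genes. MT-ND6 differed most (log2FC -3.94, limma adjusted p = 7.5e-05), followed by MT-ATP8 (-2.90). MT-ND3 had 2256 ± 143 FPKM in CFPAC-1 and 2084 ± 69.3 FPKM in BxPC-3 (mean ± SD, n = 3) and did not pass (log2FC 0.11, adjusted p = 0.154). MT-ND1 did not pass either (log2FC -0.70, adjusted p = 0.0632). The higher gene was the aspartate tRNA MT-TD (log2FC 0.86, adjusted p = 0.0402), and from 0 to 3 genes were higher when single libraries were left out, with 3 without CFPAC-1 replicate 1. Without it the median log2FC of the mRNAs was -2.10, against -2.49 with it. Genes higher numbered 5 when scaled by median of ratios or by upper quartiles, and 14 with GC content and length corrected. The shares of all genes given here are not for these settings. In this comparison log2FC rose with GC content, with a Spearman rho of 0.628 over 11784 genes. Set side by side, the mean mRNA sum was 109600 FPKM in BxPC-3, 109028 in BxPC-3-GR, 26685 in CFPAC-1 and 69557 in CFPAC-1-GR.

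FPKM is given per gene length, so levels can be set in order within a line, though not firmly for short or overlapping genes: MT-ATP8 (207 bases) had 2.87 to 4.29 times the FPKM of MT-ATP6 (681 bases), with which it overlaps. MT-CO1 was highest in BxPC-3, at 19429 ± 262 FPKM (mean ± SD, n = 3), in BxPC-3-GR, at 21553 ± 811, and in CFPAC-1-GR, at 12492 ± 842, with its range apart from that of the next gene. In BxPC-3, the genes MT-CO2, MT-ATP8, MT-CO3, MT-ND4 and MT-ND4L followed, from 15604 down to 10778 FPKM, and each overlapped the next. MT-CYB came after a gap at 6200 FPKM. In CFPAC-1, MT-CO3 had the highest mean, at 5002 ± 1412 FPKM, followed by MT-CO2 and MT-CO1, and all neighbours overlapped down to MT-RNR1 at 635 FPKM. MT-ND3 had rank 4 among the mRNAs and rRNAs by its mean in CFPAC-1, but rank 6 without replicate 1, and was in the last 3 in each of the other lines. MT-ND6 was the lowest of the 15 in all 4 lines, at 792 FPKM in BxPC-3, 691 in BxPC-3-GR, 55.9 in CFPAC-1 and 634 in CFPAC-1-GR.

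Ratios within a library do not depend on how the library was scaled. MT-ND6 stood at 0.00155, 0.00238 and 0.00212 of the summed heavy-strand mRNAs in CFPAC-1 and at 0.0104, 0.00805 and 0.00928 in CFPAC-1-GR. The CFPAC-1-GR mean was 4.58-fold higher (log2 difference 2.03 without CFPAC-1 replicate 1), with no overlap (exact permutation p = 0.10, the smallest possible, adjusted 0.225). In BxPC-3-GR the mean of this ratio was 0.874-fold that of BxPC-3, also with no overlap. MT-ND3 stood at 0.145, 0.0811 and 0.0783 of the other 11 heavy-strand mRNAs in CFPAC-1, with the highest value in replicate 1, and at 0.0267, 0.028 and 0.0266 in CFPAC-1-GR. In BxPC-3 and BxPC-3-GR it lay between 0.0184 and 0.0215. The MT-ND3 ratio was chosen after its levels were seen and was not tested.

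MT-RNR1 stood at 0.373, 0.381 and 0.485 of MT-RNR2 in BxPC-3 and at 0.304, 0.299 and 0.294 in BxPC-3-GR, with no overlap (exact permutation p = 0.10). In the CFPAC-1 lines that ratio overlapped, at 0.456 ± 0.00597 and 0.459 ± 0.042 (mean ± SD, n = 3). MT-ATP8 to MT-ATP6 and MT-ND4L to MT-ND4, pairs that overlap on the same transcript, had overlapping ratios in both lines. The ratio of MT-ATP8 to MT-ATP6 was 2.98 ± 0.142 in CFPAC-1 and 3.10 ± 0.178 in CFPAC-1-GR. The tRNA sum was 0.0152 ± 0.000612 of the mRNA sum in CFPAC-1 and 0.0206 ± 0.00130 in CFPAC-1-GR, with no overlap. On geometric means that difference turned to -0.13 on the log2 scale. In the other pair the ratio was 0.00480 ± 0.000303 in BxPC-3 and 0.00545 ± 0.000334 in BxPC-3-GR, also with no overlap (exact permutation p = 0.10, adjusted 0.225).

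**Figure D4:**
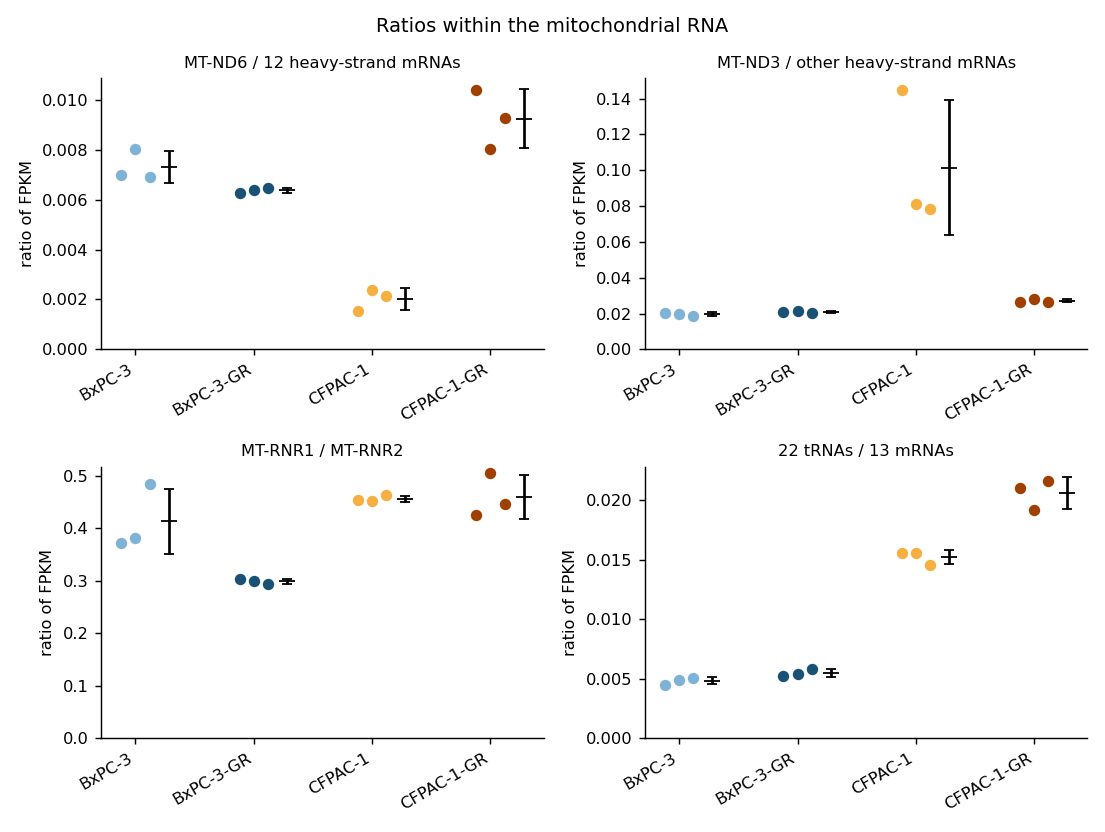
Ratios of FPKM within each library (linear axes from 0), with points for libraries and black marks for the mean ± SD of 3. CFPAC-1 libraries lie lowest for MT-ND6, at 0.00155 to 0.00238, and highest for MT-ND3, at 0.0783 to 0.145. The lower panels show MT-RNR1 to MT-RNR2, lowest in BxPC-3-GR, and tRNAs to mRNAs.

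Nuclear genes for mitochondrial gene expression moved in both directions in CFPAC-1-GR. TFAM, which packages mitochondrial DNA and starts its transcription, rose from 4.15 ± 0.230 to 15.1 ± 2.39 FPKM (mean ± SD; log2FC 1.63 ± 0.12, SE, adjusted p = 1.94e-05). TFB2M, its partner in promoter opening, rose from 4.22 ± 0.239 to 9.49 ± 2.06 FPKM (log2FC 0.99, adjusted p = 0.000703). POLRMT, the mitochondrial RNA polymerase, fell from 11.1 ± 0.725 to 2.84 ± 0.227 FPKM (log2FC -1.66 ± 0.08, adjusted p = 6.35e-06). POLG, the replicative DNA polymerase, fell (log2FC -0.58, adjusted p = 0.00172), SSBP1, the single-strand DNA-binding protein, rose (0.22, adjusted p = 0.0367), and the helicase TWNK did not pass (0.09). LRPPRC, which stabilises mitochondrial mRNAs, rose from 4.78 ± 0.363 to 21.5 ± 2.42 FPKM (log2FC 1.95 ± 0.10, adjusted p = 6.88e-06), while its partner SLIRP did not pass (0.06, adjusted p = 0.571). The elongation factor TEFM had 0.197 and 0.844 FPKM and the regulator MTERF1 0.177 and 1.03 FPKM in CFPAC-1 and CFPAC-1-GR, under the limit for testing. With the correction for GC content and length, TFAM had a log2FC of 0.42, LRPPRC of 0.88 and POLRMT of -0.82, each still passing, while TFB2M (0.27) and POLG (-0.04) no longer passed and SSBP1 turned to -0.93. The call for SSBP1 was also lost without any library other than CFPAC-1-GR replicate 3 (adjusted p from 0.0561 to 0.0975), and its log2FC was -0.06 with median-of-ratios scaling.

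In BxPC-3-GR those of these genes that were tested fell or did not pass. TFAM fell from 14.0 ± 0.934 to 10.2 ± 1.03 FPKM (log2FC -0.42 ± 0.09, SE, adjusted p = 0.00685). TFB2M (log2FC -0.68), TWNK (-0.91), SSBP1 (-0.50), LRPPRC (-0.39) and SLIRP (-0.32) fell as well, with adjusted p from 0.000482 to 0.00905. POLRMT (-0.08, adjusted p = 0.495), POLG (-0.09, adjusted p = 0.277) and TEFM (0.06, adjusted p = 0.595) did not pass, and MTERF1 was not tested, at 1.10 and 0.668 FPKM.

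Of the nuclear-encoded subunits of the respiratory chain and ATP synthase, 49 of 75 tested were lower in CFPAC-1-GR, 13 higher and 13 did not pass, with a median log2FC of -0.55. In BxPC-3-GR, 28 of 76 were lower, 3 higher and 45 did not pass (median -0.10). Of the mitochondrial ribosomal proteins, 34 of 77 were lower and 21 higher in CFPAC-1-GR (median -0.21), and 46 of 76 were lower and 5 higher in BxPC-3-GR (median -0.37). Genes for RNA processing, modification and decay had 16 of 31 higher and 10 lower in CFPAC-1-GR (median 0.35), and 1 of 33 higher and 26 lower in BxPC-3-GR (median -0.39). Those for replication and transcription had 9 of 22 higher and 7 lower in CFPAC-1-GR (median 0.04), and 4 of 24 higher and 9 lower in BxPC-3-GR (median -0.09). TFB1M and MRPL12 each stand in 2 of these lists. These counts stand beside all genes tested, of which 44.6% were higher and 34.9% lower in CFPAC-1-GR and 26.2% and 31.5% in BxPC-3-GR. Counts and medians of the lists are not corrected for GC content, with which log2FC fell in the CFPAC-1 comparison. The part of that trend in them was not tested.

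Among the 3 members of these lists with the largest absolute log2FC in each line, LRPPRC in CFPAC-1-GR was the only increase. In CFPAC-1-GR, ATP5D, the delta subunit of ATP synthase, fell from 18.9 ± 2.86 to 3.42 ± 1.10 FPKM (log2FC -2.19, limma adjusted p = 4.12e-05). NDUFB11, a complex I subunit, fell from 146 ± 1.11 to 36.8 ± 3.33 FPKM (log2FC -1.97, adjusted p = 6.25e-06). Over the alternatives run, log2FC was from -2.56 to -1.18 for ATP5D and from -2.39 to -1.03 for NDUFB11. In BxPC-3-GR, MRPL58, a release factor of the mitochondrial ribosome, fell from 22.5 ± 1.55 to 9.72 ± 1.16 FPKM (log2FC -1.14, adjusted p = 0.000177). COX6B1, a complex IV subunit, fell from 91.8 ± 2.82 to 43.1 ± 1.70 FPKM (log2FC -1.08), and also fell in CFPAC-1-GR (log2FC -1.04, adjusted p = 8.69e-05). UQCRFS1, the Rieske protein of complex III, fell from 51.3 ± 2.40 to 24.0 ± 0.371 FPKM in BxPC-3-GR (log2FC -1.06).

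**Figure D5:**
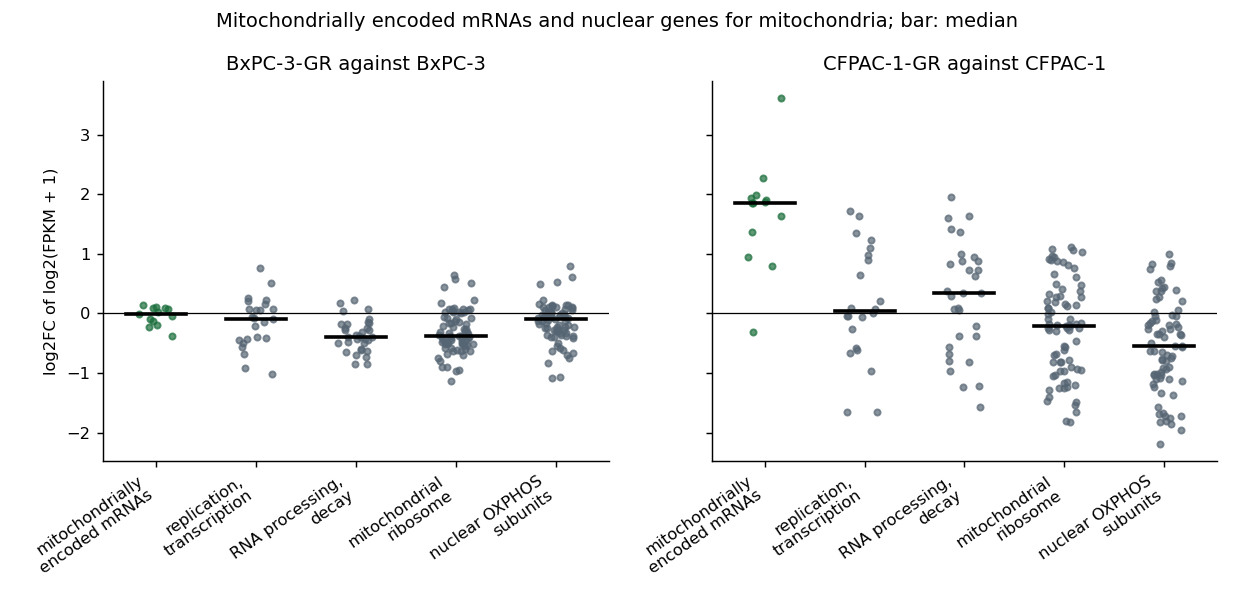
log2FC of log2(FPKM + 1), on a linear axis, of the 13 mitochondrially encoded mRNAs and of tested nuclear genes in 4 lists, in each resistant line against its parent. Points are genes, spread sideways at random, and bars are medians. In CFPAC-1-GR the median of the mitochondrially encoded mRNAs was 1.86 and that of nuclear-encoded respiratory chain and ATP synthase subunits -0.55. No value shown is corrected for GC content.

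Copies of mitochondrial sequence in the nuclear genome can take or lose reads of the genes described here. The 405 annotated copies had summed FPKM of 792 to 1828 in the CFPAC-1 libraries and of 3901 to 4259 in the CFPAC-1-GR libraries, and so moved with the mitochondrial genome. Most of it lay in MTATP6P1, MTND2P28 and MTCO1P12 on chromosome 1. MTATP6P1 had 41.8 FPKM in BxPC-3 replicate 1 and between 3202 and 4085 FPKM in the other BxPC-3 and BxPC-3-GR libraries, while MT-ATP6 had 3804 FPKM in that replicate and 3309 to 3965 in the others. MTND2P28 had 228, 465 and 466 FPKM in CFPAC-1 and 960, 999 and 1058 FPKM in CFPAC-1-GR. MTCO1P12 had 148, 321 and 399 FPKM in CFPAC-1 and 637, 685 and 711 FPKM in CFPAC-1-GR. Their part in the values of the mitochondrial genes was not tested.

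Whether libraries were made from polyadenylated RNA is not given in the sources used here, and it bears on the rRNAs, the tRNAs and MT-ND6. Nuclear RNAs without a poly(A) tail differed in level, and most entries were under 1 FPKM in every library. RN7SL1, RN7SL2 and RN7SK had 11.9 to 96.8 FPKM over all libraries. RPPH1 and the higher entry of RMRP had 2.51 to 37.3 FPKM. Of those tested, 3 of 5 were higher in CFPAC-1-GR (RN7SL2, RN7SK and RMRP, with log2FC of 1.06, 1.01 and 0.89) and 2 did not pass, where 44.6% of all genes tested were higher. Their summed FPKM ran from 58.3 to 117 in the CFPAC-1 libraries, and from 123 to 194 in those of CFPAC-1-GR. In BxPC-3-GR, 0 of 5 passed by limma, where 26.2% of all genes were higher and 31.5% lower. Their part in the increase of the rRNAs, the tRNAs and MT-ND6 was not tested.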

How the data were processed

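RNA was sequenced in 12 libraries of 4 lines, with 3 libraries each. The authors deposited FPKM per gene and library. Per their methods, reads were aligned to GRCh38 with Ensembl annotation. The submitters' processing notes name Trimmomatic 0.27, FastQC 0.10.1, TopHat2 2.0.8 and the builds hg19 and GRCh38. The counting program, strandedness and poly(A) selection are not given in the sources used here. The loci of all 37 genes equalled those of GENCODE release 29 on GRCh38.

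The methods name a test for read counts, which FPKM are not. FPKM were tested here with limma 3.58.1 in R 4.3.3, on log2(FPKM + 1), leaving out genes whose mean FPKM in the libraries compared was under 1. Fold changes on this scale understate low genes. P-values were two-sided and Benjamini-Hochberg adjusted over all genes tested. A gene passed at an adjusted p under 0.05 and was SDE if its absolute log2FC was also above 1. Class sums and ratios were compared by exact permutation tests. Whole fragments were recovered from the FPKM steps of tRNAs: within 0.01 of a fragment, all 22 tRNAs were whole in every library. In simulated data with 200 genes changed by an absolute log2FC of 2, limma recovered 100% in the CFPAC-1 comparison (12543 genes tested, 5 false calls) and 94.0% for the difference between the lines (12665 genes tested, 9 false calls). The simulated noise was drawn for each gene on its own and carried no GC trend. The simulation shows that the fit finds known changes and does not give the error rate of the calls reported here.

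Named genes were all mitochondrially encoded genes, 10 nuclear regulators, the 3 list members with the largest absolute log2FC per line and the 3 highest pseudogene copies. Members and lists were chosen with earlier results of these data known. Alternatives changed the pseudocount, filter, libraries in the fit, scaling, GC content and length correction, prior variance, replicate block and each replicate.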

Additional observations from a re-analysis of the deposited data

Results flagged for a closer look

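A closer look is warranted at 29 genes whose response differed between the lines by the limma test of the difference (adjusted p under 0.05) and by more than 1 on the log2 scale. Of all 12210 genes tested, 23.6% passed the same rule as higher. Each value is the log2FC of CFPAC-1-GR against CFPAC-1 minus that of BxPC-3-GR against BxPC-3. Among complex I mRNAs they were MT-ND1 (1.26), MT-ND2 (2.24), MT-ND4L (1.84), MT-ND4 (1.91), MT-ND5 (2.19) and MT-ND6 (3.81). The other mRNAs were MT-CYB (1.73), MT-CO1 (1.70), MT-ATP8 (2.21) and MT-ATP6 (2.06), and both rRNAs were among them, MT-RNR1 (1.72) and MT-RNR2 (1.25). Of the light-strand tRNAs they were MT-TQ (2.75), MT-TA (1.23), MT-TS1 (1.44), MT-TE (2.88) and MT-TP (2.14). Of the heavy-strand tRNAs they were MT-TF (1.32), MT-TV (2.13), MT-TL1 (1.74), MT-TI (1.82), MT-TM (1.68), MT-TD (1.15), MT-TK (2.20), MT-TG (1.32), MT-TH (1.35), MT-TS2 (1.53), MT-TL2 (1.58) and MT-TT (1.62). All use the CFPAC-1 libraries, and over all genes the difference fell with GC content, with a Spearman rho of -0.696 over 12147 genes. With GC content and length corrected, 16 of the 37 genes passed as higher and 12 of them exceeded 1. The share of 23.6% is without that correction.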

How the results depend on the processing

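For CFPAC-1-GR against CFPAC-1, the median log2FC of the 13 mRNAs stayed above 0 in all alternatives run, between 1.10 and 2.16. GC correction was the setting that moved it most. Gene counts in the alternatives stand without a share of all genes, as shares are given for the main fit only. The correction for GC content alone was chosen after seeing the data. With GC content and length corrected, the median was 1.33, with 22 genes higher and 13 SDE as higher, and with GC content alone 1.10, with 16 SDE as higher. Under the first, MT-TF (-0.16), MT-TW (-0.34), MT-TY (-0.44), MT-TG (-0.35), MT-TH (-0.16) and MT-TT (-0.028) turned. Under the other, MT-TW (-0.090), MT-TY (-0.14) and MT-TG (-0.15) did, as did POLG (0.072). SLIRP turned to -0.91 and -1.09 and SSBP1 to -0.93 and -0.96. Scaled by median of ratios, SLIRP had -0.22, TWNK -0.16 and SSBP1 -0.060. Scaled by upper quartiles, they had -0.35, -0.27 and -0.18. Scaling to genes outside the mitochondrial genome left 1 gene lower and gave MT-TN 0.11. The median log2FC of all genes was then 0.37, against -0.13 with median-of-ratios and -0.24 with upper-quartile scaling. The log2 difference of the mRNA sum was 1.01 and of the tRNA sum 1.44 with upper-quartile scaling, and that of the rRNA sum 1.25 with median-of-ratios, 1.12 with upper-quartile and 1.85 with scaling to the other genes. Geometric means turned the tRNA to mRNA ratio to -0.13 and the rRNA to mRNA ratio to -0.12.

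For BxPC-3-GR, no direction of the mRNA median can be given. It was 0.049 when scaled by median of ratios, 0.0045 by upper quartiles, 0.059 with the GC content and length correction and 0.014 with GC content alone. These settings moved MT-ND4 to the same values, and MT-CO2 was 0.0038 with median-of-ratios and 0.024 with the GC content and length correction. MT-ND4L was -0.011 with scaling to the other genes. Genes higher numbered 0 with all 12 libraries in 1 limma fit (1 higher and 0 lower at an unadjusted p under 0.05) and 10 with the GC content and length correction. Genes lower numbered 0 and 1 there, and 1 with median-of-ratios.

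For the difference between the lines, the mRNA median was 1.47 and 1.36 with median-of-ratios and upper-quartile scaling, 2.17 with scaling to the other genes, 1.44 with GC content and length corrected and 1.25 with GC content alone. Genes lower numbered 2, 3, 0 (also 0 by limma at an unadjusted p under 0.05), 4 and 3 in these settings. With the GC content and length correction 16 genes were higher and 12 SDE, and with GC content alone 19 and 16. For CFPAC-1 against BxPC-3, the mRNA median was -1.99 with GC content and length corrected and -1.90 with GC content alone. Genes higher numbered 0 without a filter and with scaling to the other genes, where 0 were higher at an unadjusted p under 0.05 by limma. They numbered 5 with median-of-ratios and with upper-quartile scaling, and 14 and 9 with the GC corrections.

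The replicate numbers did not pair the samples: correlations of same-numbered deviations ran from -0.143 to 0.0959, and not every library correlated best with its own number. With a replicate block, 1 gene was lower in BxPC-3-GR and 3 were higher in CFPAC-1 against BxPC-3. With the block and the GC content and length correction, medians were 1.33 in CFPAC-1-GR, 0.059 in BxPC-3-GR, 1.44 for the difference and -1.99 in CFPAC-1 against BxPC-3, as without it. Genes higher were 9 in BxPC-3-GR, 16 for the difference and 16 in CFPAC-1 against BxPC-3. Genes lower were 1 in BxPC-3-GR, 4 in CFPAC-1-GR and 6 for the difference, and SDE were 13 in CFPAC-1-GR and 11 for the difference.

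Leaving out each replicate gave mRNA medians from -0.050 to 0.051 in BxPC-3-GR and from 1.45 to 2.05 for the difference, lowest without CFPAC-1 replicate 1. Genes lower ranged from 1 to 3 in BxPC-3-GR and from 1 to 2 for the difference. Genes higher in CFPAC-1 against BxPC-3 ranged from 0 to 3, with 3 without CFPAC-1 replicate 1. Ranges for single genes were -0.092 to 0.0031 for MT-CO2, -0.050 to 0.051 for MT-ND4, -0.027 to 0.055 for MT-ND4L, -0.28 to 0.010 for MT-RNR1 and -0.0034 to 0.11 for TEFM in BxPC-3-GR, and -0.010 to 0.14 for SLIRP and -0.065 to 0.26 for TWNK in CFPAC-1-GR. Except where a scaling or correction was applied, the cause of these changes was not tested. For the tRNAs, depth limits the comparison, with 1 to 895 fragments per gene and library.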
